A study of Rattus norvegicus with 5 samples.

Results

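The genes described here are S100a8, S100a9 and Pglyrp1, which encode antimicrobial proteins of neutrophils and monocytes. They were taken as the probes whose only gene symbol in the platform annotation is 1 of these 3 symbols, which gave 3 probes of 26856 with a signal on all arrays, and 3 genes of the 5990 that have a probe with a single symbol. They were chosen by their log2 signals in this very comparison, since an earlier look at the same 5 arrays had put them among the neutrophil genes that were lower in tolerant than in syngeneic animals. Their levels and differences are therefore given as a description, without a test.

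RNA was measured on 1-colour arrays in rat blood cells labelled myeloid-derived suppressor cells, immature myeloid cells that can restrain T cells. All recipients were LEW.1A rats sampled at day 100 after kidney transplantation. The treatment protocol in the labels gives a binephrectomy (removal of both kidneys) at day 7. The 3 tolerant arrays came from recipients of a LEW.1W kidney (haplotype RT1u on RT1a, mismatched for MHC class I and II; kidneys aged 8 to 12 weeks) that were given the antibody JJ319, which binds CD28, a receptor that gives T cells a second activating signal. The 2 syngeneic arrays came from recipients of a LEW.1A kidney, for which the labels name no antibody, so the mismatched graft and the antibody cannot be told apart. In both groups the cells were blood leucocytes after lysis of erythrocytes, depleted of cells bearing MHC class II or CD3 and then collected on CD80 and CD86. The design text counts 3 recipients a group, only 2 syngeneic arrays were analysed here, and no label ties an array to an animal, so the spread behind every p-value is that of these arrays and may be technical.

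S100A8 and S100A9 are small calcium-binding proteins that pair as calprotectin, one of the most abundant cytosolic proteins of neutrophils and also made by monocytes. Calprotectin starves microbes by binding zinc and manganese, and when released it acts as an alarm signal through TLR4 and RAGE. PGLYRP1 is a secreted peptidoglycan recognition protein kept in neutrophil granules, which kills bacteria. In mouse tumours S100A9 has been linked to the build-up of myeloid-derived suppressor cells.

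The calprotectin genes are neighbours. In the GRCr8 assembly S100a8 lies at chr2:178464095-178465223 and S100a9 at chr2:178487941-178490622, 22717 bases apart with 0 annotated genes between them, within the S100 gene cluster. Pglyrp1 lies on another chromosome, at chr1:87659863-87665048. RefSeq promoter windows in GRCr8, from 250 bases before to 50 bases after the start of the gene, were at hand for S100a9 (chr2:178490573-178490872, minus strand) and Pglyrp1 (chr1:87659613-87659912, plus strand). They are shown because both genes were higher on each syngeneic array than on every tolerant array, and capitals mark every match to 5 short motifs searched on both strands.
S100a9: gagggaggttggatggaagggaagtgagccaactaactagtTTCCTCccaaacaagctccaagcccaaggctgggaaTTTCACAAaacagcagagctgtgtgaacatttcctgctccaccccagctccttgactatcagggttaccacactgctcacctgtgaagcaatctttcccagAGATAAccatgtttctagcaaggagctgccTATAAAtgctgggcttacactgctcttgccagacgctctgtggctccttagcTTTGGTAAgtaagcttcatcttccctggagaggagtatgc
Pglyrp1: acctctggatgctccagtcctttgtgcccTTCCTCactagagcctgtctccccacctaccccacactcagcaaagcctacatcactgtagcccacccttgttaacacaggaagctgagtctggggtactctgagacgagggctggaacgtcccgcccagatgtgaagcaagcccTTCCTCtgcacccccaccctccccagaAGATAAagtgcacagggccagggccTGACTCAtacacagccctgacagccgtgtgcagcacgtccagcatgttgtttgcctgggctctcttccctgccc
Both windows hold the PU.1 motif GAGGAA (as its reverse complement, at -209 in S100a9 and at -221 and -76 in Pglyrp1, counted from the start of the gene), which 27.6% of 33469 RefSeq promoter windows hold. Both also hold the GATA motif AGATAA, at -72 in S100a9 and -49 in Pglyrp1, present in 11.6% of all windows. Only the S100a9 window holds the C/EBP motif TTNNGNAA (at -173 and 11; 41.3% of all windows) and the TATA box TATAAA (at -42; 14.2%). Only the Pglyrp1 window holds the AP-1 motif TGANTCA (at -24; 7.33%). No matches overlap, except that the AP-1 motif reads the same on both strands. These are matches of letters and no binding was measured.

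S100a9 was the calprotectin gene that varied more. Its log2 signal was 16.23 on tolerant array 1, 9.25 on array 2 and 14.06 on array 3, and the syngeneic arrays gave 19.11 (array 1) and 20.51 (array 2). The groups did not overlap: both syngeneic arrays lay above the highest tolerant array by at least 2.88. On tolerant array 2 the signal was under the background level of that array (10.76), which is the signal that 95% of 482 probes for olfactory receptors, genes that blood cells should not use, did not exceed. The files used here hold no quality flag for a spot and S100a9 has 1 named probe, so whether that spot was read correctly was not tested. Tolerant cells averaged 13.18 ± 3.57 (SD, n = 3) and syngeneic cells 19.81 ± 0.99 (SD, n = 2), which is a log2 difference of -6.63, or 99.1-fold. This size rests on single arrays. The difference was -4.67 (25.4-fold) without tolerant 2, -8.16 (286-fold) without tolerant 1, -7.33 (161-fold) without syngeneic 1 and -5.93 (61.1-fold) without syngeneic 2. With tolerant 2 set to its background level, an alternative chosen after seeing the data, it was -6.13 (69.9-fold). In such sorted bulk samples fewer cells of a type and less RNA per cell cannot be told apart.

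S100a8, the partner of S100a9 in calprotectin, was well above background on every array. Its log2 signal was 16.54 on tolerant array 1, 15.20 on array 2 and 16.01 on array 3, and the syngeneic arrays gave 17.92 (array 1) and 19.59 (array 2). Here too the groups did not overlap, and the gap between the lowest syngeneic and the highest tolerant array was 1.38, or 2.60-fold. The means were 15.92 ± 0.67 (SD, n = 3) for tolerant and 18.75 ± 1.18 (SD, n = 2) for syngeneic arrays, -2.84 apart, or 7.14-fold. The difference was -3.67 (12.7-fold) without syngeneic 1 and -2.00 (4.00-fold) without syngeneic 2.

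Pglyrp1 was near background in tolerant cells. Its log2 signal was 10.51 on tolerant array 1, 10.80 on array 2 and 10.57 on array 3, of which only tolerant 2 lay above its background level, by 0.04. On syngeneic arrays 1 and 2 it was 13.52 and 15.34, above background by 2.69 and 4.49. The tolerant arrays were close together (10.63 ± 0.15, SD, n = 3) and the syngeneic arrays far apart (14.43 ± 1.29, SD, n = 2), with no overlap and a gap of 2.72. The log2 difference of -3.80 is thus partly measured against background. With the 2 arrays at background set to their background level it was -3.51, or 11.4-fold. The difference was -4.72 (26.3-fold) without syngeneic 1 and -2.89 (7.42-fold) without syngeneic 2.

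**Figure D1:**
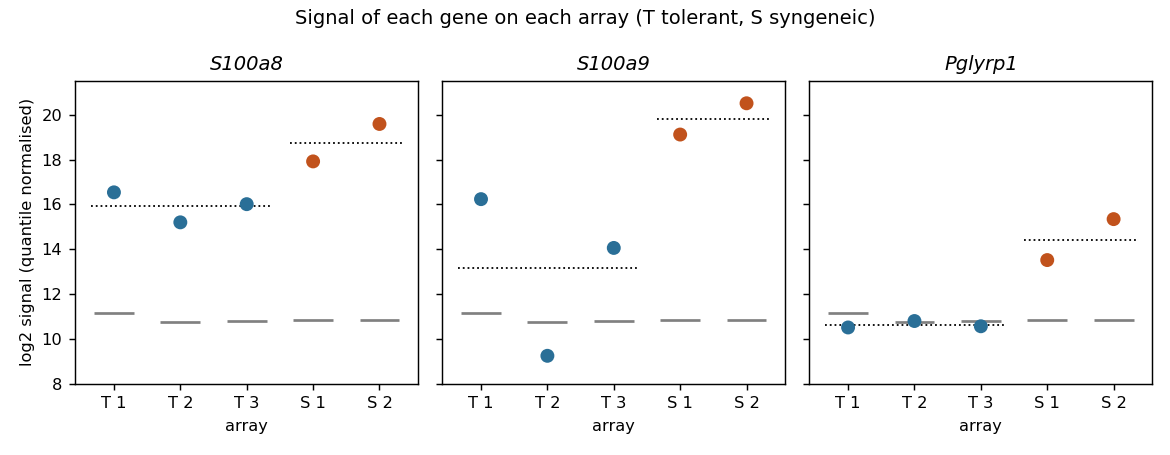
Log2 signal (vertical axis, quantile normalised) of S100a8, S100a9 and Pglyrp1 on the 5 arrays; blue points are tolerant (T), orange points syngeneic (S), grey bars the background level of each array and dotted lines the group means. Each gene is higher on both syngeneic arrays than on every tolerant array, S100a9 is below background on T 2, and Pglyrp1 lies near background on all 3 tolerant arrays.

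The raw intensities, before any normalization, show the same order. For S100a9 they were 41993, 533 and 19218 on tolerant arrays 1 to 3, against 616654 and 1943974 on the syngeneic arrays. For S100a8 they were 52298, 34687 and 73928, against 275710 and 970143. For Pglyrp1 they were 999, 1766 and 1692, against 13251 and 52806. On the raw scale tolerant 3 was the highest tolerant array for S100a8, whereas tolerant 1 was the highest after normalization.

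All 3 genes had every tolerant array below both syngeneic arrays, a pattern shared by 1399 of the 13428 probes tested (10.4%). The direction was what chose the genes, so this count carries no weight of its own. Negative differences as such made up 49.7% of the tested probes. By size, 87 of the 13428 tested probes had a larger negative difference than S100a8, 43 than Pglyrp1 and 8 than S100a9. The limma fit over all tested probes called 6 probes lower (0.0447%) and 0 higher at an adjusted p of 0.05, with 454 (3.38%) and 267 (1.99%) at an unadjusted p under 0.05. The 6 hold none of the genes described here, and nothing is read from that, since this contrast chose them. With so small a share called, 0 genes passing in a short list below carries no weight either.

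Within the syngeneic group the 3 genes were all higher on array 2 than on array 1, by 1.67 for S100a8, 1.39 for S100a9 and 1.83 for Pglyrp1 on the log2 scale. Over all tested probes this step had a median of 0.12 and ran from -2.55 at the 5th to 1.95 at the 95th percentile. Among tolerant arrays the genes parted. From array 2 to array 1 the step was 1.34 for S100a8 and 6.99 for S100a9, but -0.29 for Pglyrp1, where the 5th to 95th percentile of all tested probes was -1.86 to 1.76. Syngeneic 2 stood apart over all probes, with correlations of 0.84 to 0.86 with the other arrays against 0.89 to 0.92 among those 4.

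To compare the genes apart from their level, each profile was centred on its mean over the 5 arrays. Then 2 profiles were compared by the root mean square (RMS) of their differences on the log2 scale. The profiles were not scaled, so the RMS reflects the size of a swing as well as its shape. Over the 5 arrays S100a9 spanned 11.26 log2 units, S100a8 4.39 and Pglyrp1 4.83. S100a8 and Pglyrp1 differed by 0.71, while S100a9 differed by 2.62 from S100a8 and 2.74 from Pglyrp1. Without tolerant 2 the distances of S100a9 were 1.24 and 0.89, and that between S100a8 and Pglyrp1 was 0.74. Of 3432 other named genes tested, 41 lay closer to S100a8 than Pglyrp1 did, and 3278 lay closer to it than S100a9 did. Counted from S100a9, 12 genes lay closer to it than S100a8 did and 15 closer than Pglyrp1 did. Counted from Pglyrp1, 17 lay closer to it than S100a8 did and 3172 closer than S100a9 did. These counts include tolerant 2, and none was made without it.

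The gene nearest to S100a8 was Il1b, the inflammatory cytokine interleukin 1 beta, at an RMS of 0.26 over 5 arrays. Its tolerant arrays read 16.45, 15.00 and 15.39 and its syngeneic arrays 17.17 and 18.95, in array order, so both genes were lowest on tolerant 2 and highest on syngeneic 2. Il22ra2, the decoy receptor for IL-22, followed at 0.27, Ier3, an early response gene, at 0.39, Faslg, the ligand of the death receptor Fas, at 0.44 and Crmp1 at 0.46. Unlike Il1b, the latter 4 were at background on all 3 tolerant arrays. Nearest to Pglyrp1 were Tmem204 at 0.23, Tspan8 at 0.38, Ier3 at 0.39, Gimap5, a GTPase needed for lymphocyte survival, at 0.45 and Nrgn (neurogranin) at 0.45. Of these only Gimap5 was above background on any tolerant array, and on 1 of the 3. No gene came as near to S100a9: the closest were Nkg7, a granule membrane protein of cytotoxic lymphocytes, at 1.79, Nos2, the inducible nitric oxide synthase, at 1.97, the chemokine Ccl5 at 2.21, the lymphocyte glycoprotein Cd5 at 2.22 and the NK receptor Klrd1 at 2.24. The nearest genes of S100a9 depended on its value on tolerant 2, since 0 of these 5 were among the nearest 5 without that array.

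**Figure D2:**
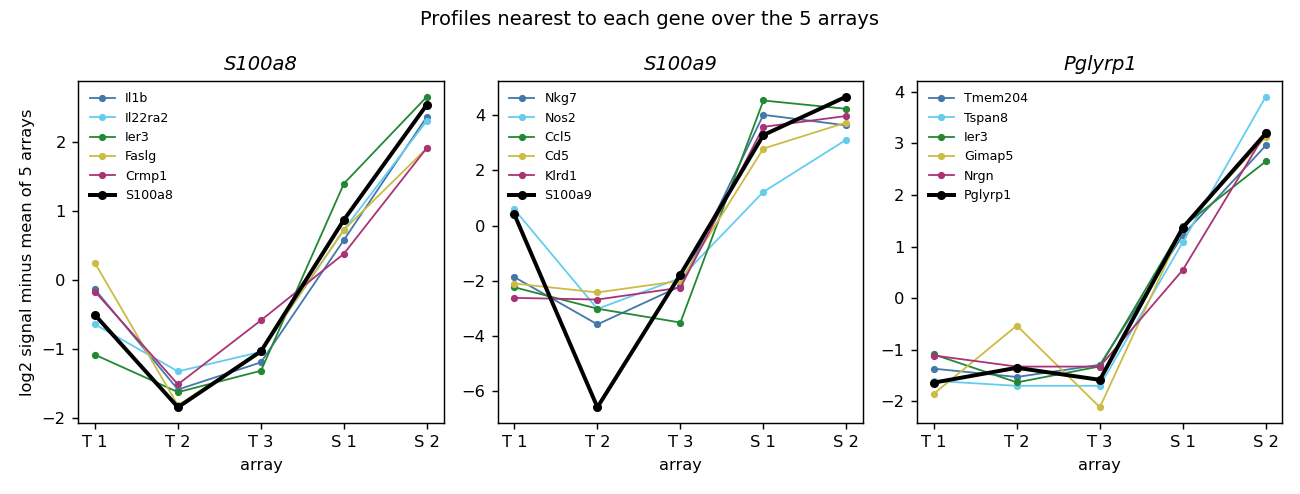
Log2 signal minus the gene's mean over the 5 arrays (vertical axis) for S100a8, S100a9 and Pglyrp1 (black) and the 5 named genes with the nearest profile (colours), by array (T tolerant, S syngeneic; lines only guide the eye). The profiles of S100a8 and Pglyrp1 have close neighbours, with RMS distances from 0.26 and 0.23, while S100a9 drops on T 2 below all of its neighbours.

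In the other S100 genes tested the groups overlapped for each of the 6. Over all tested probes every tolerant array lay below both syngeneic arrays in only 10.4%, and the share above both was not counted. Overlap in these 6 genes is therefore given as a description, and nothing is read from it. The list held 15 genes, of which 8 have a named probe and 6 were tested; 3 had a negative and 3 a positive difference, with a median of 0.21 against 0.00 over all tested probes (-0.17 against -0.16 with median scaling, and -0.26 against -0.37 without normalization). None passed the test (limma, 0 also at an unadjusted p under 0.05). S100a4, which binds cytoskeletal proteins and is abundant in monocytes, read 19.69, 19.10 and 19.40 on the tolerant and 19.15 and 18.47 on the syngeneic arrays, and the groups overlapped. S100a6 (calcyclin) differed by 0.56, and S100a10, the annexin A2 partner, by 0.50, against 0.59 for S100a4 (adjusted p = 0.907 for each in limma). S100a11 differed by -0.08. S100a4 and S100a6 are near the calprotectin genes on chromosome 2, 73.3 and 64.3 kb from S100a8. With S100a9 itself left aside, 7 tested genes lay within 500 kb of S100a8. Their median difference was 0.59, with 1 negative (S100a3, at -0.60), and 0 passed (limma, 0 also unadjusted). Only 2 genes within 500 kb of Pglyrp1 were tested, Foxa3 at -0.35 and Eml2 at 0.86.

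**Figure D3:**
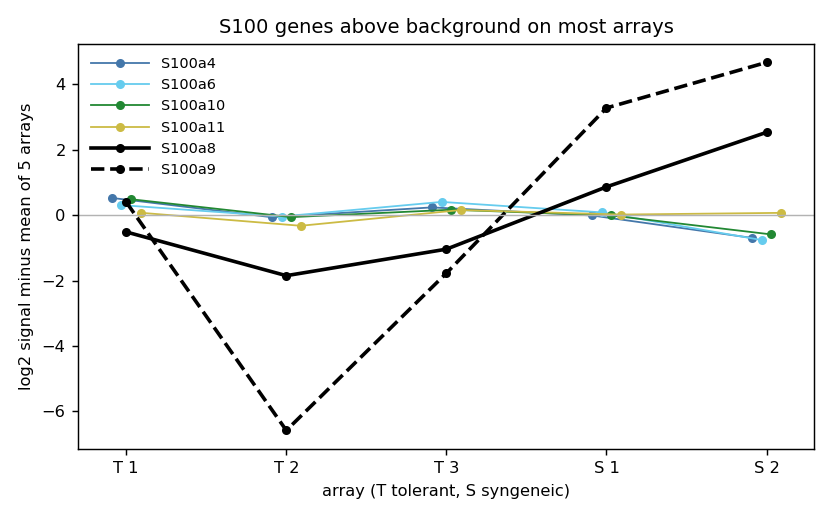
Log2 signal minus the gene's mean over the 5 arrays (vertical axis) for S100a8 and S100a9 (black) and for 4 other S100 genes that were above background on all arrays (colours), by array (T tolerant, S syngeneic; lines only guide the eye, points shifted sideways for legibility). S100a4, S100a6, S100a10 and S100a11 stay within 1 log2 unit of their mean while S100a8 spans 4.39 and S100a9 11.26 log2 units.

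Granule and secreted defence proteins of neutrophils were mostly at background, as were most probes of every array. Of all probes, from 22.8% (tolerant 1) to 26.6% (tolerant 2) were above background on an array. Of the 27 symbols listed 10 have a named probe, 6 of these were at background on all 5 arrays, and 5 were tested. In these 5 the median difference was -0.26 with 3 negative, and 0 passed (limma; 1, Mmp9, at an unadjusted p under 0.05). Np4 and Defa5, alpha defensins, and Lcn2, the iron-siderophore binder lipocalin 2, were at background on every array. Mmp8, neutrophil collagenase, was above background only on syngeneic 1. Lyz2, lysozyme of monocytes and granulocytes, was bright on all arrays and differed by 0.96 (tolerant 20.33 ± 0.52, SD, n = 3; syngeneic 19.37 ± 0.18, SD, n = 2). Hp, haptoglobin, differed by 1.17, and by -0.74 without syngeneic 2.

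Among neutrophil surface and signalling genes 8 of 10 tested were negative, and the median was -0.67. None passed over all probes (limma), while 2, Il1r2 and Alox5, had an unadjusted p under 0.05. Il1r2, the decoy receptor for IL-1, read 9.80, 8.56 and 8.67 on the tolerant arrays, all at background, and 11.50 and 13.95 on the syngeneic arrays. Where a whole group is at background the fold is a lower bound, taken from the bright group's mean to the background levels of the dim arrays (or to the probe's signal where that is higher). Il1r2 was at least 3.53-fold lower (limma adjusted p = 0.470), a bound that became 8.24-fold with syngeneic 1 left out and 1.51-fold with syngeneic 2 left out. Alox5, which makes leukotrienes, was at background on the 3 tolerant arrays too, with a bound of at least 1.47-fold lower (limma adjusted p = 0.749). Of the genes of the same list that were above background on all arrays, Anxa1, annexin A1, differed by -0.97, Fcgr3a, an IgG receptor, by -0.82, Alox5ap, the partner of Alox5, by -0.36, and C5ar1, the complement C5a receptor, by 0.21. Itgam (CD11b) differed by 1.39, with syngeneic 2 at background, and by -0.35 without that array.

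**Figure D4:**
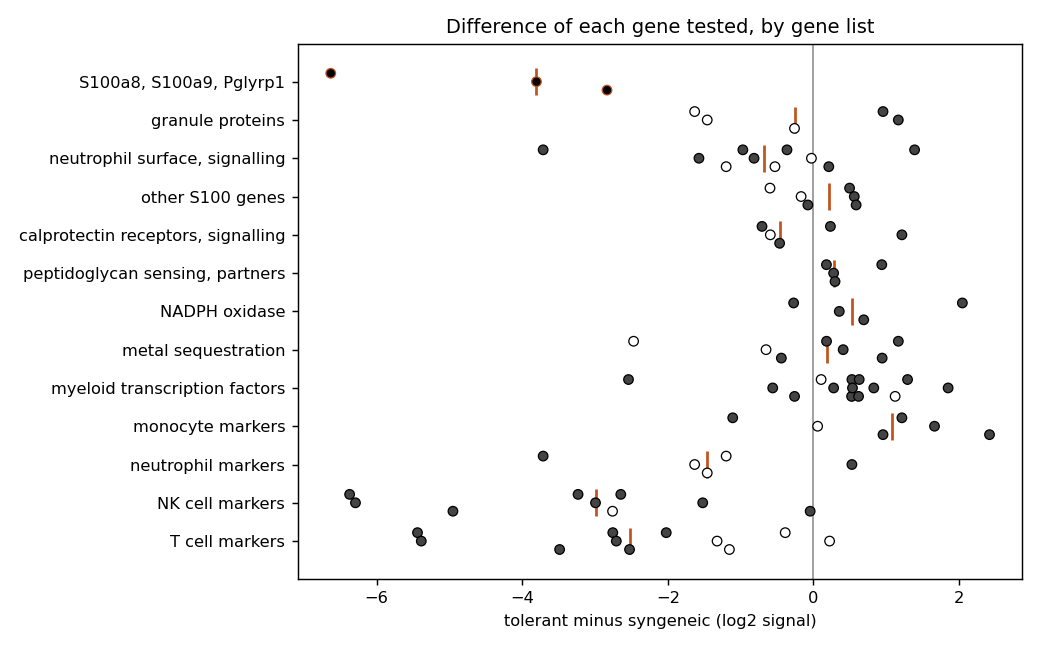
Tolerant minus syngeneic log2 signal (horizontal axis) of each gene tested, by list (rows); filled points were above background on all arrays of at least 1 group (Pglyrp1, on both syngeneic arrays), open points were not, and orange bars are medians. S100a8, S100a9 and Pglyrp1 lie at -2.84, -6.63 and -3.80, the other S100 genes between -0.60 and 0.59, and the NK and T cell markers mostly below 0.

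Among receptors and partners of these proteins 0 of 9 genes tested passed over all probes (limma), where 0.0447% of all tested probes passed as lower and 0 as higher. Of the 5 tested genes for calprotectin receptors and signalling 3 were negative, with a median of -0.46, and 0 passed (limma, 0 also unadjusted). Cd14, the TLR4 coreceptor, differed by 1.22 (limma adjusted p = 0.907; 1.84 without syngeneic 1 and 0.59 without syngeneic 2), Myd88, the TLR adaptor, by -0.71, Bsg (CD147), a receptor of S100A9, by -0.46, and Cd36 by 0.23. The probes for Tlr4 and for Ager (RAGE) were at background on all 5 arrays. For peptidoglycan sensing and partners of PGLYRP1 all 4 tested genes were positive, with a median of 0.29, and 0 passed (0 also unadjusted). Tyrobp, the adaptor of the PGLYRP1 receptor TREM-1, differed by 0.28, Tnfrsf1a by 0.18 and Hspbp1 by 0.30. Tlr2 differed by 0.94. Without syngeneic 2 the difference of Tlr2 was -0.91, that of Tnfrsf1a -0.09 and the median of the 4 genes -0.0081.

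The NADPH oxidase, which calprotectin supplies with arachidonic acid, had 4 tested subunits or regulators, 3 of them positive, with a median of 0.52, and 0 passed (0 also unadjusted). Cyba differed by 0.69, Ncf1 by 0.36, Rac2 by -0.27, and Cybb by 2.05, or -0.44 without syngeneic 2. Genes of metal handling, several of them for iron (calprotectin binds zinc and manganese), had a median of 0.18 over 7 tested, 3 negative. Of these 0 passed, and 1, the iron exporter Slc40a1, had an unadjusted p under 0.05 (limma). Slc40a1 was above background on syngeneic 2 alone, and its difference of -2.47 was -0.85 without that array. The ferritin chains Fth1 and Ftl1 differed by -0.44 and 0.41, and Tf, transferrin, by 0.94. Without syngeneic 2 the signs of Ftl1 and Tf turned and the median of the metal genes was -0.41, and with no filter on low signals it was -0.44.

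Of 14 myeloid transcription factors, all tested, 3 were negative and 11 positive, with a median of 0.53, and 0 passed (limma; 1 negative at an unadjusted p under 0.05). That 1 was Gfi1, a repressor needed for neutrophil development and also used by lymphocytes. Its log2 signal was 9.14, 10.20 and 10.56 on the tolerant arrays, all at background, and 12.43 and 12.58 on the syngeneic arrays, so that it was at least 3.03-fold lower (adjusted p = 0.446). The C/EBP factors, which drive granulocyte genes, had differences of both signs: Cebpb differed by 0.54, Cebpd by -0.56, Cebpa by 1.29, and Cebpe, named after its values were seen, by 0.53. Spi1 (PU.1), the master regulator of the myeloid lineage, differed by 1.85 and Klf4, a factor of monocytes, by 0.28. The signs of Cebpa and Spi1 turned without syngeneic 2, where both were at background, as were Itgam, Cybb and Tlr2, and the median of the 14 factors was then -0.0094. Such a loss was not particular to these genes. At background on syngeneic 2 alone were 624 of the tested probes (4.65%), against 409 on tolerant 1 and 33 to 73 on the other arrays. The background level itself was higher on tolerant 1 (11.17) than on the other arrays (10.76 to 10.85). The 3 genes described here were at their highest on syngeneic 2.

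The cells themselves were checked against markers. Cd80 and Arg1 were at background on all 5 arrays, Itgam was above it on all but syngeneic 2, and Cd86, the other sorted antigen, on tolerant 2 and 3 and syngeneic 1. Sirpa (CD172a), a receptor of myeloid cells, was above background on all arrays and differed by 1.41. Nos2 was above it on tolerant 1 and both syngeneic arrays and differed by -3.61 (limma adjusted p = 0.821). The class II genes RT1-Da and RT1-Bb, although cells bearing class II were depleted, were above background on all arrays, with mean log2 signals of 17.65 and 16.30 on tolerant and 16.20 and 15.65 on syngeneic arrays. Cd3d, a chain of the depleted CD3, was above background on tolerant 3 and both syngeneic arrays, with means of 10.83 and 14.32 (limma adjusted p = 0.186). Of 6 monocyte markers between 4 and 5 were above background on each array, and their summed signal was 19.92 to 20.85 (log2) on tolerant and 19.29 to 19.66 on syngeneic arrays. These sums are mostly Lyz2, also a gene of granulocytes, which alone read 19.75 to 20.74 on tolerant and 19.24 to 19.50 on syngeneic arrays. Of 8 neutrophil markers with a probe 1 was above background on each tolerant array, and 4 and 3 on syngeneic arrays 1 and 2, with a summed log2 signal of 13.36 to 14.21 and 14.54 to 14.77. All 8 are also in the lists described above, so these values are no separate observation. Of the 5 neutrophil markers tested 0 passed (limma; 2 negative at an unadjusted p under 0.05, again Mmp9 and Il1r2). Cebpe, the 1 neutrophil marker above background on all arrays, differed by 0.53. Of 12 NK cell markers 1 was above background on each tolerant array and 9 and 8 on the syngeneic arrays, with sums of 13.04 to 13.67 and 17.32 to 17.58, and 2, Klrd1 and Klre1, fell over all probes (limma adjusted p = 0.036 and 0.040; at least 16.2-fold and 6.65-fold lower, since they were at background in tolerant cells). Of 11 T cell markers 2 to 5 were above background on tolerant and 9 and 8 on syngeneic arrays, with sums of 13.92 to 14.52 and 17.13 to 17.16, and Cd5 fell (limma adjusted p = 0.040; at least 8.87-fold lower). With tolerant 1, 2 or 3 or syngeneic 2 left out, 0 probes were called lower, so these calls were lost. At an unadjusted p under 0.05 (limma) 8 of the 9 NK cell markers tested and 8 of the 11 T cell markers were lower. The share of all tested probes lower at that level was 3.38%. Of 5 erythroid markers at most 1 was above background on a tolerant array and 2 and 3 on the syngeneic arrays (sums of 11.23 to 12.39, then 15.58 and 21.16). Of 4 platelet markers 0 were above background on tolerant arrays and on syngeneic 1, and 2 on syngeneic 2. Of 6 eosinophil, basophil and mast cell markers 1, Hdc, was above background, on syngeneic 2 alone. The 2 B cell markers went the other way, with sums of 14.78 to 17.52 on tolerant and 12.52 to 14.03 on syngeneic arrays. The part of these cell types in the levels of S100a8, S100a9 and Pglyrp1 was not tested.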

How the data were processed

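Per the labels' protocols, digoxigenin-labelled cRNA was hybridised to Applied Biosystems rat survey arrays of 60-mer probes. The authors deposited 1 linear intensity for each probe and array, before normalization. Not given in the sources used here: scanner software, background subtraction and detection flags. The authors' deposited log2 values differed from log2 of the quantile-normalised intensities by at most 0.000102, and for the 3 genes not at all to 2 decimals; their median was 9.41 on each array. Raw medians per array ran from 563 to 798.

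Intensities were quantile normalised, floored at the 10th percentile (log2 8.29) and put on the log2 scale. Of 26857 probes, 1 had a missing signal. The 13428 probes whose mean reached the all-probe median (log2 9.40) were tested with limma 3.58.1 in R 4.3.3, with Benjamini-Hochberg adjustment, tolerant minus syngeneic. Tables and figures were made with Python 3.11.15. Probe names come from GEO's platform annotation (6104 probes with 1 symbol, 70 with several); where a gene has several probes the brightest stands for it.

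The members, lists (8 of pathways, 9 of markers), background level and tests were chosen with earlier results of these data known. Named genes are the 3, the 5 nearest profiles of each, and per list those past the threshold, the 3 brightest and the 3 with the largest difference among genes above background on all arrays of a group. Genes named beyond this rule were chosen after their values were seen. Same-numbered arrays were not paired: their deviations from group means correlated at -0.10 and 0.02. No scan date or slide was given, so batches could not be tested; the number of arrays limits the precision.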

Additional observations from a re-analysis of the deposited data

How the results depend on the processing

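The sizes of the differences for S100a8, S100a9 and Pglyrp1 moved with the processing, while their direction was fixed by how the genes were chosen. Over the series matrix values, median scaling, no normalization, normexp background correction and no floor they ran from -3.34 to -2.84, from -7.18 to -6.63 and from -4.20 to -3.80. Median scaling and no normalization shifted the median of all tested probes to -0.16 and -0.37, and relative to that median the ranges were -2.96 to -2.84, -6.81 to -6.63 and -3.87 to -3.81. With the array number as a replicate block, although the numbers share only a name, the differences were -2.88, -7.07 and -3.77, and 0 probes were called in either direction. Leaving out 1 array gave -3.67 to -2.00 for S100a8, -8.16 to -4.67 for S100a9 and -4.72 to -2.89 for Pglyrp1.

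The count of probes called lower, 6, was 53 with median scaling, 80 without normalization, 14 with limma-trend, and 0 with normexp or without the signal filter; it ran from 0 to 38 when 1 array was left out. The count called higher, 0, was 1 without normalization and ran from 0 to 53 when 1 array was left out, the 38 and 53 both without syngeneic 1. The cause was not tested. The granule protein median was 1.06 with the stricter filter, which left fewer genes, and ran from -0.74 to 0.47 when 1 array was left out. For other named genes and lists, 540 of 615 recomputed differences stayed within 1 SD between replicates. Under median scaling the signs of C5ar1, Cd36, Klf4 and Tnfrsf1a turned, as did that of Cd36 without tolerant 3. Without normalization, where the median of all tested probes was -0.37, the medians for peptidoglycan sensing (-0.08), NADPH oxidase (-0.03) and metal genes (-0.17) turned negative. That of the myeloid transcription factors stayed positive, at 0.13. Among single genes Cebpb (-0.0094) and Ftl1 (-0.09) turned there too. Of the 5 nearest genes, 2 to 5 remained for S100a8, 1 to 5 for Pglyrp1 and 0 to 5 for S100a9. With no detection calls, levels near background, such as Pglyrp1 in tolerant cells, are only bounded.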

Other observations

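The S100a9 signal on tolerant array 2 was unlike that on the other arrays. It was at background there and above it on the other 4 arrays, by a gap of 4.81 on the log2 scale to the next lowest array. Of the 13428 probes tested, 33 were at background on tolerant 2 alone, against 409 on tolerant 1, 58 on tolerant 3, 73 on syngeneic 1 and 624 on syngeneic 2. Tolerant 1 had the highest background level, 11.17 against 10.76 to 10.85 on the other arrays. S100a9 was the only 1 of the 33 with a gap that large. This cutoff is the gap of S100a9 itself, so the count is a description and no test. On tolerant 1, tolerant 3 and syngeneic 1 alone, 0 probes had a gap that large. On syngeneic 2 alone there were 16, among them Eef1a1, a translation elongation factor, Ldha, a lactate dehydrogenase chain, and Ptprc (CD45), the common leucocyte antigen. S100a8 on tolerant 2 was above its background level by 4.44. S100a9 has 1 named probe here.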
